A study of Drosophila melanogaster with 4 samples.

Results

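The JNK and p38 stress kinase pathway was examined in Dop1R2 RNAi pupae through 10 genes: the MAP kinase kinases hep, Mkk4 and lic, the kinases bsk, p38a and p38b, the AP-1 transcription factors Jra and kay, the phosphatase puc and the stress-induced gene Gadd45. The genes were chosen by name, and probe sets were taken where the array annotation gives 1 of these names and no other. By this rule 9 of the 10 genes have probe sets, 11 in number, among the 10845 genes that the annotation pairs with a probe set of their own. No probe set carries the name of p38b, which was not analysed here. Affymetrix Drosophila genome arrays were used in duplicate, which makes 4 arrays. Whole early (pale) pupae raised at 29 °C were pooled by 10 to 20 for each of them. Dop1R2 RNAi pupae were UAS-dsDop1R2/+;Act5C-Gal4/+, in which a hairpin that targets the dopamine receptor Dop1R2 is expressed ubiquitously. Control pupae were labelled w1118;Act5C-Gal4/+ and carried the same driver without the hairpin. The methods of the study describe the controls in the same way, whereas its figure legends give siblings with the hairpin and the balancer TM6B in place of the driver. Neither the labels nor the methods say which of the independent hairpin insertions was used on the arrays, and the age of the pupae is given only as the pale stage. The target could not be checked, because 0 probe sets name Dop1R2.

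JNK and p38 are MAP kinases that are activated by stress, wounding, infection and morphogenetic cues. An upstream MAP kinase kinase kinase phosphorylates a MAP kinase kinase, which in turn phosphorylates the MAP kinase. In the fly, hep and Mkk4 act on the JNK bsk, and lic acts on the p38 kinases. Active JNK phosphorylates the AP-1 proteins Jra (Jun) and kay (Fos), and AP-1 induces puc, a phosphatase that switches JNK off again. At the onset of metamorphosis the pathway is known for its part in the closure of the thorax, when the wing discs spread over the larval epidermis. Arrays measure transcripts, whereas these kinases are switched on and off by phosphorylation, which was not measured.

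The transcription factor kay and the phosphatase puc, together with Gadd45 and Mkk4, were higher on both Dop1R2 RNAi arrays than on both control arrays. The signals were 2.85-fold higher for kay, 1.70-fold for puc, 1.62-fold for Gadd45 and 1.58-fold for Mkk4. None of the 9 genes passed the test, limma with p adjusted by the Benjamini-Hochberg method over the 8749 probe sets bright enough to be tested and a threshold of 0.05. The adjusted p was smallest for kay (0.0936). At unadjusted p 3 of the 9 genes were higher and 0 lower. In the same fit 121 of all tested probe sets rose (1.38%) and 9 fell (0.103%), and at unadjusted p 7.53% were higher and 5.51% lower. Both Dop1R2 RNAi arrays lay above both controls in 4 of the 9 genes, as they did in 21.1% of all tested probe sets, and below in 0 (24% of all). The log2 fold change was above 0 in 8 of the 9 genes, with a median of 0.45, against 46.1% and a median of -0.04 over all tested probe sets. These shares describe the genes and are not a test of them as a group, since the genes were chosen with earlier results of these data known.

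**Figure D1:**
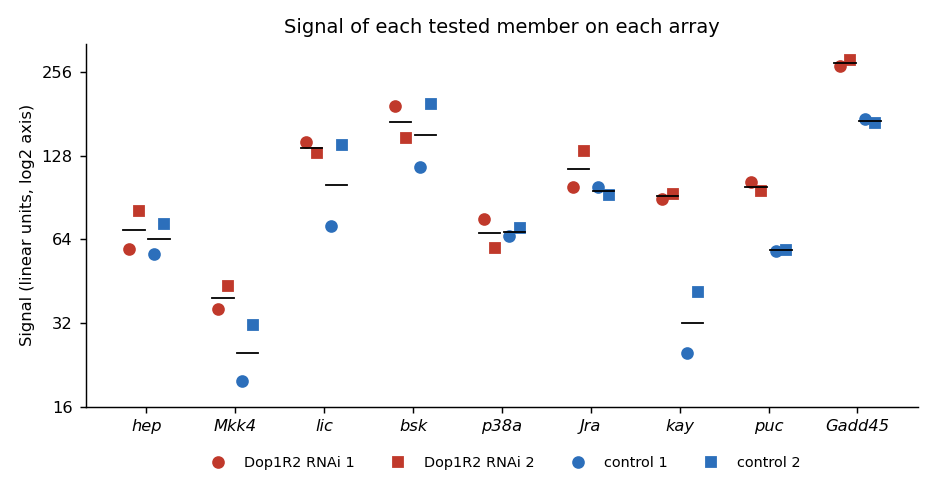
Signal of the brightest probe set of each of the 9 genes (linear units on a log2 axis) on the 2 Dop1R2 RNAi arrays (red) and the 2 control arrays (blue), circles for replicate 1 and squares for replicate 2, with bars at the geometric mean of each group. The groups are apart for Mkk4, kay, puc and Gadd45 and overlap for the other 5 genes.

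The number of arrays limits the precision. The 4 arrays had the same trimmed mean of 100.02, and median signals lay between 43.4 and 45.0. Ratios of the 3' to the 5' control probes, a sign of RNA quality, were 1.61 to 2.07 for actin in both groups. For eIF-4a they were 2.82 and 3.98 in Dop1R2 RNAi pupae against 4.24 and 4.59 in controls, and for Gapdh 3.88 and 3.90 against 3.97 and 4.61. The part of these ratios in any result was not tested. The smallest change that passed in the whole table was 2.39-fold. The labels call the arrays of each group biological replicates, and the smallest two-sided p of an exact permutation test is 0.333 here.

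The MAP kinase kinases were considered first. The signal of Mkk4, the second activator of JNK, reached 35.8 and 43.4 in Dop1R2 RNAi vs. 19.8 and 31.5 in control pupae. The groups did not overlap, but the control arrays differed 1.59-fold from each other, and the change did not pass (log2 fold change 0.66 ± 0.41 SE, adjusted p = 0.526, limma). Its signals lay between the 31.2 and the 49.1 percentile of the array, around the limit for testing. The main JNK activator hep gave signals of 58.9 and 81.2 vs. 56.8 and 72.6 in controls, which overlap (log2 fold change 0.11 ± 0.28 SE, adjusted p = 0.904). A second, dimmer probe set of hep, below the limit for testing, pointed the other way, with 27.8 and 23.4 against 39.8 and 26.9 (log2 fold change -0.36).

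The p38 activator lic, which lies next to hep on the X chromosome, had signals of 143 and 131 in Dop1R2 RNAi pupae. The controls had 71.8 and 141, and the second of these lay between both Dop1R2 RNAi arrays. Its log2 fold change of 0.45 (± 0.34 SE, adjusted p = 0.604) rested on control replicate 1, and was -0.036 without that array.

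The kinases themselves differed less than their replicates did. The JNK bsk gave signals of 194 and 148 upon Dop1R2 knockdown vs. 117 and 197 in controls, so the highest and the lowest value were both controls (log2 fold change 0.16 ± 0.32 SE, adjusted p = 0.871). p38a, which lies beside p38c on chromosome arm 3R, gave 76.0 and 59.8 against 66.0 and 70.2, with both controls between the Dop1R2 RNAi arrays (log2 fold change -0.01 ± 0.25 SE, adjusted p = 0.991). The 95% interval of the change of p38a ran from -0.61 to 0.58 on the log2 scale, and that of bsk from -0.59 to 0.90. Changes of 1.49-fold up or 1.52-fold down in p38a, or 1.87-fold up in bsk, thus lay at the edges of what these arrays allow.

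The clearest separation was that of kay, the Fos component of AP-1. Its signal reached 89.8 and 93.3 in Dop1R2 RNAi pupae but only 24.9 and 41.3 in control pupae, a mean of 91.5 ± 2.48 (SD, n = 2 arrays) against 33.1 ± 11.6 (SD, n = 2). The lowest Dop1R2 RNAi array exceeded the highest control by 1.12 on the log2 scale. The signal in control replicate 1 lay at the 36.2 percentile of that array, under the limit for testing. The log2 fold change was 1.51 (SE 0.32, 95% interval 0.76 to 2.26), and 2.30% of tested probe sets had a larger one. It was above the smallest change that passed in the whole table, yet kay did not pass (adjusted p = 0.0936). The interval is for 1 gene and takes no account of the number of probe sets tested. A second probe set of kay was dim and not tested. Its signals of 14.3 and 8.57 (Dop1R2 RNAi) vs. 4.77 and 14.1 (control) overlapped, below the 25th percentile of each array.

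Jra, the Jun partner of kay, had signals of 98.6 and 133 upon knockdown vs. 98.8 and 92.7 in controls. The first Dop1R2 RNAi array lay between the controls (log2 fold change 0.26 ± 0.25 SE, adjusted p = 0.688). Within each array, the log2 signal of kay less that of Jra was -0.13 and -0.51 with the hairpin and -1.99 and -1.17 without it. The difference between the groups was thus 1.26, with no overlap. This pair was set side by side with the values of kay known, so the difference is a description. Where the groups do not overlap, an exact permutation test on these arrays can only give a two-sided p of 0.333. It therefore does not test this difference.

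**Figure D2:**
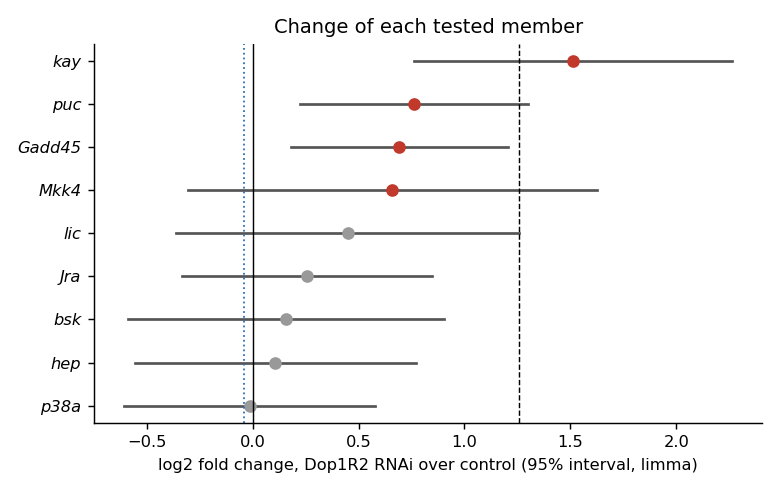
Log2 fold change (Dop1R2 RNAi over control) of each of the 9 genes with its 95% interval from limma, red where the arrays of the 2 groups do not overlap. The dotted line is the median of all tested probe sets (-0.04) and the dashed line the smallest change that passed the adjusted threshold (1.26), which kay alone exceeds with its estimate of 1.51.

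The phosphatase puc, a widely used reporter of JNK activity in the fly, had signals of 103 and 95.9 in knockdown and of 58.3 and 58.6 in control pupae. The means were 99.2 ± 4.78 (SD, n = 2 arrays) and 58.4 ± 0.248 (SD, n = 2). The groups were apart by 0.71 on the log2 scale, with replicates that differed 1.07-fold or less, and the log2 fold change was 0.76 (SE 0.23, 95% interval 0.23 to 1.30, adjusted p = 0.240). Gadd45, whose mammalian relatives bind upstream kinases of the JNK and p38 cascades, had signals of 269.5 and 283 against 173 and 169. Its means were 276 ± 9.65 (SD, n = 2) and 171 ± 3.32 (SD, n = 2), and its log2 fold change was 0.69 (SE 0.22, 95% interval 0.18 to 1.21, adjusted p = 0.255). For puc and Gadd45 the unadjusted p from limma was 0.0122 and 0.0150. Among all tested probe sets 7.10% had a larger log2 fold change than puc and 8.36% a larger one than Gadd45.

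Single arrays were left out in turn. With 2 arrays per group this restates how far the replicates differ. The sign cannot turn where the groups are apart, so it adds no evidence for those genes. Control replicate 1 was the lowest of the 4 arrays in 6 of the 9 genes (puc, bsk, hep, kay, Mkk4 and lic), as it was in 31.6% of all tested probe sets, and the highest in 0. Without it the log2 fold changes of kay and Mkk4 were 1.15 and 0.32, and those of hep, bsk and lic were -0.07, -0.22 and -0.036. Those of puc and Gadd45 were 0.76 and 0.71. With each array left out in turn, puc ranged from 0.71 to 0.81, Gadd45 from 0.66 to 0.73 and kay from 1.15 to 1.88. Without Dop1R2 RNAi replicate 1, kay passed (adjusted p = 0.0181). In that fit, however, 357 of all tested probe sets rose and 295 fell, and the lone array of a group is assumed to vary like the others.

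**Figure D3:**
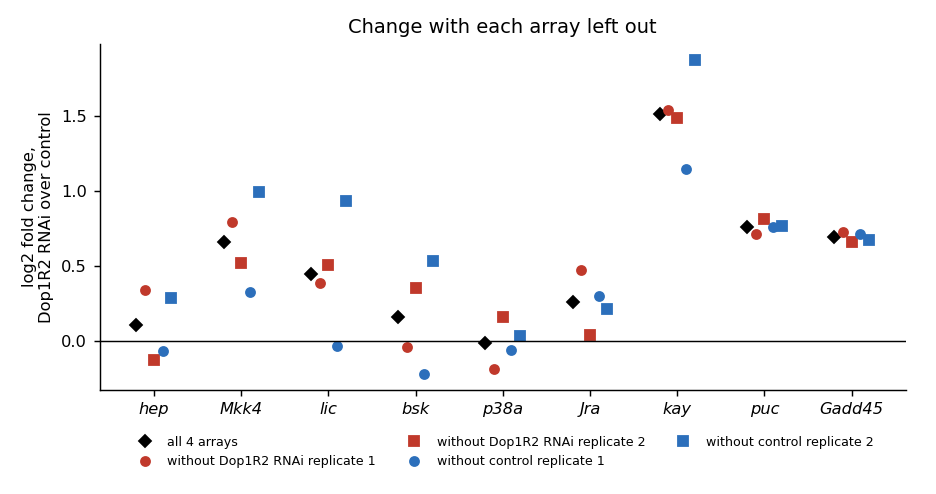
Log2 fold change (Dop1R2 RNAi over control) of each of the 9 genes with all 4 arrays (black) and with each array left out in turn (red, a Dop1R2 RNAi array; blue, a control array). The values of puc and Gadd45 stay within 0.71 to 0.81 and 0.66 to 0.73, whereas those of hep, bsk, lic and p38a fall on both sides of 0.

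Genes upstream of JNK were looked at next. Of 22 named receptors, adaptors and kinases, 15 had a probe set and were tested, and 0 rose or fell (2 higher and 0 lower at unadjusted p from limma). Their median log2 fold change was 0.15. Tab2, an adaptor of the kinase Tak1, had signals of 156 and 204 in Dop1R2 RNAi pupae against 98.5 and 98.4 in controls (log2 fold change 0.86, adjusted p = 0.223). The receptor tyrosine kinase Pvr had 201 and 246 against 106 and 142 (log2 fold change 0.85, adjusted p = 0.245). The mixed-lineage kinase slpr, which activates hep, had the widest spread, with 58.7 and 31.6 against 8.67 and 37.9 (log2 fold change 1.25, adjusted p = 0.507). The JNK-activating ligand egr, of the tumour necrosis factor family, and its receptors wgn and grnd overlapped between the groups, with log2 fold changes of -0.07, 0.26 and 0.13.

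Genes that have been described as raised by JNK signalling in the fly gave a mixed picture. Of 15 named, 9 had a probe set and 7 were tested, of which 1 rose and 0 fell (1 higher and 1 lower at unadjusted p). The gene that rose was Hsp68, an inducible chaperone that also answers to heat shock factor, with signals of 1926 and 3120.0 in knockdown vs. 139 and 161 in control pupae (log2 fold change 4.03 ± 0.28 SE, adjusted p = 0.00145). The other 6 had log2 fold changes between -0.50 and 0.09. Both Dop1R2 RNAi arrays lay below both controls for scaf, a secreted protease homologue (252 and 239 against 328 and 364), for the filamin cher (214 and 232 against 292 and 258) and for the glutathione S-transferase GstD1 (2995 and 2873 against 4356 and 3698). None of these 3 passed (adjusted p = 0.391, 0.593 and 0.328). Both Dop1R2 RNAi arrays lay above both controls for 2 of the 7, Hsp68 and Ilp8 (52.0 and 50.2 against 49.3 and 46.7, log2 fold change 0.09). Over all tested probe sets 24% lay below and 21.1% above in this way. Under the limit for testing, Ets21C was higher on both (4.79 and 15.0 against 4.16 and 3.01), and upd1 overlapped (9.02 and 11.5 against 3.68 and 11.4). The list median was -0.10.

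Among 5 tested genes of the p38 branch, 0 rose or fell in limma (1 higher and 0 lower at unadjusted p), with a median log2 fold change of 0.30. Of these, 3 (Mekk1, Ask1 and Tab2) also belong to the upstream JNK genes. The 1 that was higher at unadjusted p was Tab2, which was already counted there. The transcription factor Atf-2, a p38 substrate, had signals of 32.3 and 38.9 against 14.4 and 36.6 (log2 fold change 0.63, adjusted p = 0.648). The MAP kinase kinase kinase Ask1 had 86.9 and 79.0 against 61.4 and 73.5 (log2 fold change 0.30, adjusted p = 0.619). Of 3 other phosphatases of MAP kinases that were tested, Mkp3, MKP-4 and alph, 0 rose or fell (0 at unadjusted p), with log2 fold changes of -0.09, -0.37 and 0.04. For MKP-4 both Dop1R2 RNAi arrays lay below both controls (22.4 and 28.3 against 34.1 and 31.2), as in 24% of all tested probe sets. Mkp3 and alph overlapped. PTP-ER, under the limit for testing, was also lower on both (15.9 and 12.3 against 21.2 and 28.9, log2 fold change -0.82). In the ERK branch, a parallel MAP kinase cascade, 0 of 7 tested genes rose or fell (1 higher and 0 lower before adjustment) and the median was -0.10. The largest difference there was that of the exchange factor Sos, with 56.8 and 68.1 against 27.4 and 36.7 (log2 fold change 0.97, adjusted p = 0.263). Both Dop1R2 RNAi arrays lay below both controls for ksr, the scaffold of the cascade, with 27.9 and 30.9 against 33.4 and 51.0 (log2 fold change -0.49, adjusted p = 0.600). They did so too for the ETS repressor aop, with 351 and 394 against 423 and 577 (log2 fold change -0.41, adjusted p = 0.507).

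Of the other bZIP transcription factors, the family to which Jra and kay belong, 10 were tested and 0 rose or fell, with 2 higher and 0 lower at unadjusted p and a median of 0.23. cnc, the Nrf2 relative of the oxidative stress response, had signals of 162 and 184 on its brightest probe set in Dop1R2 RNAi pupae against 91.7 and 89.3 in controls (log2 fold change 0.93 ± 0.22 SE, adjusted p = 0.151). Irbp18, a C/EBP-related factor, had 57.4 and 66.4 against 28.8 and 37.9 (log2 fold change 0.90, adjusted p = 0.282). Atf-2, whose values are given above, came next in size. Both Dop1R2 RNAi arrays lay above both controls in 4 of the 10 and below in 2, against 21.1% and 24% of all tested probe sets. The 2 that were below are Pdp1, a regulator of the circadian clock (67.1 and 52.6 against 77.7 and 99.7, log2 fold change -0.57, adjusted p = 0.421), and crc, the ATF4 of the fly (2182 and 2130 against 2402 and 2421, log2 fold change -0.16, adjusted p = 0.701). Among 6 tested genes of the DNA damage response, in which mammalian Gadd45 was first known, 0 rose or fell (0 at unadjusted p), with a median of 0.18. The largest difference was in tefu, the ATM kinase, with 36.3 and 52.4 against 24.2 and 28.6 (log2 fold change 0.73, adjusted p = 0.450). p53 had 42.7 and 37.6 against 18.4 and 45.1 (log2 fold change 0.48, adjusted p = 0.702), and the checkpoint kinase lok 22.7 and 38.5 against 36.9 and 38.2 (log2 fold change -0.35, adjusted p = 0.745). The arrays of the 2 groups overlapped for both.

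**Figure D4:**
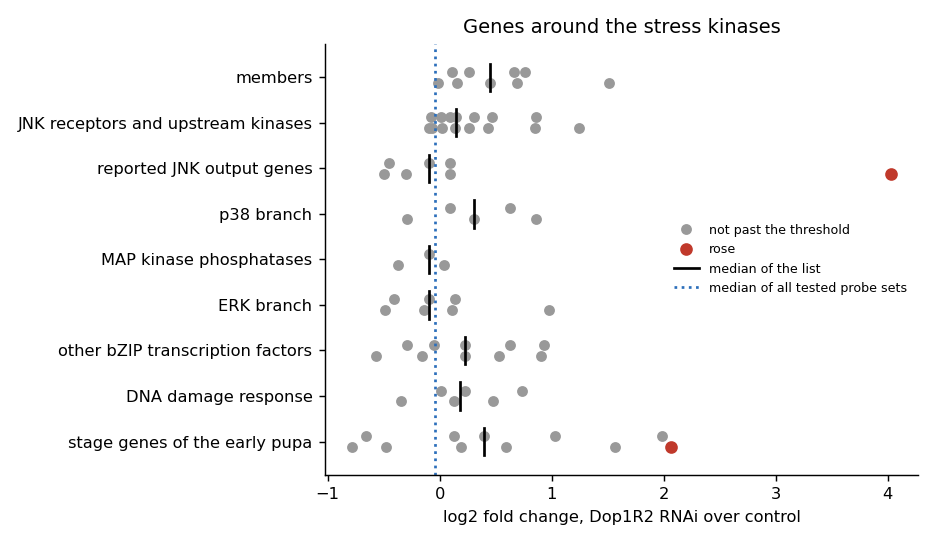
Log2 fold change (Dop1R2 RNAi over control) of the tested genes of each list, red where a gene rose at adjusted p from limma, with the list median as a bar and the median of all tested probe sets (-0.04) as a dotted line. Hsp68 (4.03) and Edg91 (2.07) are the only genes of these lists past the threshold, and kay (1.51) is the highest of the 9 stress kinase pathway genes.

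Genes that mark the stage of the pupa and other cell types were examined beside these differences. In whole pupae, fewer cells of a type and less RNA per cell cannot be told apart. Of 11 tested stage genes, 1 rose and 0 fell, with 4 higher and 1 lower at unadjusted p. The gene that rose was Edg91, a cuticle gene, with signals of 178 and 289.6 in knockdown vs. 56.5 and 51.7 in control pupae (log2 fold change 2.07, adjusted p = 0.0226). Without control replicate 1 or without control replicate 2, 0 stage genes rose. The cuticle genes Edg78E and Edg84A had log2 fold changes of 1.98 and 1.56 (adjusted p = 0.0670 and 0.241) and the nuclear receptor ftz-f1 one of 1.03 (0.293). The ecdysone-inducible gene ImpE2 had one of -0.78 (0.249). The part of stage in the values of kay, puc and Gadd45 was not tested.

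Haemocytes, in which JNK and AP-1 are known to act, were followed by 12 marker genes, of which 11 had a probe set. Their summed signal was 593 and 600 in Dop1R2 RNAi pupae against 701 and 779 in controls. The lower sum rested on the matrix peroxidase Pxn, the brightest of them, with 187 and 170 against 359 and 380.0 (log2 fold change -1.05, adjusted p = 0.0926). Without Pxn the sum was 406 and 430 against 341 and 399, higher on both Dop1R2 RNAi arrays. Of the 6 tested, 0 rose or fell (0 higher and 1 lower at unadjusted p). In 4 of them both Dop1R2 RNAi arrays lay above both controls and in 1 below, against 21.1% and 24% of all tested probe sets. The scavenger receptor Sr-CI had 42.7 and 52.3 against 25.7 and 29.4 (log2 fold change 0.78, adjusted p = 0.386), and the prophenoloxidase PPO2 67.1 and 71.8 against 38.3 and 57.8 (log2 fold change 0.56, adjusted p = 0.460). For srp the groups overlapped (log2 fold change -0.01). The markers under the limit for testing all pointed lower. These were Hml, PPO1, PPO3, eater and lz, with log2 fold changes of -0.15, -0.15, -0.44, -0.77 and -0.10.

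In the fat body, muscle, neuron and salivary gland lists 0 tested genes rose or fell in limma, and 0 at unadjusted p. The summed signals of the fat body markers were 20085 and 20711 against 20336 and 21082, and the log2 fold changes of Lsp2, Fbp1 and apolpp were -0.16, 0.13 and -0.08. The muscle markers gave 15397 and 10114 against 15168 and 12794, and Mlp84B, bt and up had log2 fold changes of -0.60, 0.29 and -0.28. The neuron markers gave 475 and 279 against 472 and 456, and Rdl, nrv3 and ChAT had log2 fold changes of -0.69, -0.35 and -0.22. Without nrv3, the brightest, the neuron sum was 152.2 and 110 against 152.0 and 181. Dop1R2 RNAi replicate 2 was the lowest array in the muscle sum and in both neuron sums. Both Dop1R2 RNAi arrays lay below both controls for Rdl and for elav and para, which were under the limit for testing (log2 fold changes -0.68 and -1.50). For nrv3, ChAT, nSyb, brp and Syn the groups overlapped. The salivary gland glue genes Sgs1, Sgs3, Sgs4, Sgs5 and Sgs7 were all under the limit for testing, and the markers of that gland summed to 135 and 134 against 130.3 and 119. Eig71Ee, also under the limit, was higher on both Dop1R2 RNAi arrays, with 30.3 and 26.7 against 21.9 and 17.0 (log2 fold change 0.56). Sgs7 was lower on both, with 5.82 and 5.89 against 6.35 and 6.47. The 2 that were tested, sage and Sgs8, had log2 fold changes of 0.09 and 0.004. For sage both Dop1R2 RNAi arrays lay above both controls (33.9 and 35.5 against 33.7 and 31.5), and for Sgs8 the groups overlapped.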

How the data were processed

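The authors ran Microarray Suite (the submitters' processing notes name MAS5, and its version is not given in these sources), and each deposited value is the intensity of a probe set, linear and scaled to 1 trimmed mean per array. All value columns of the 4 arrays were used. Of 14010 probe sets, 44 array controls were left out. Of the remaining 13966, the 8749 that reached the 40th percentile on 2 or more arrays were tested on plain log2 values in R 4.3.3 with limma 3.58.1 (lmFit, then eBayes with an intensity trend). Figures used matplotlib 3.10.9. The study's own filter on detection calls was not repeated.

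Groups follow the sample labels. Probe sets with 1 gene name (12443, against 327 with several and 1196 with none) were matched through the gene identifier to current RefSeq symbols (Release 6 plus ISO1 MT), which served for names and neighbours only. Where a gene had several probe sets, the brightest stands for it. The genes to name were all members and, of each other list, those that passed and the 3 with the largest change. Others are named for their role or their direction and were chosen after their values were seen. Members and lists were chosen with earlier results of these data known. The fit was checked on simulated data. Alternatives were other filters, a floor, a pseudocount of 32, quantile and median scaling, no trend, the methods' t-test, replicate number as a block, gene means over probe sets, and each array left out. No sequence was read for these genes.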

Additional observations from a re-analysis of the deposited data

How the results depend on the processing

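None of the 9 genes passed in the fit with all 4 arrays or in any alternative, except kay without Dop1R2 RNAi replicate 1, and puc and Gadd45 in the methods' t-test at unadjusted p. In that t-test p was 0.00416 for puc (log2 fold change 0.76), 0.00344 for Gadd45 (0.69) and 0.0538 for kay, and 2 genes passed, but the adjusted p was 0.472, 0.464 and 0.559. It called 467 probe sets higher and 323 lower unadjusted and 0 after adjustment. With single arrays left out, 0 to 1 of the 9 rose, and log2 fold changes ranged from 1.15 to 1.88 for kay, from -0.22 to 0.53 for bsk, from -0.12 to 0.34 for hep, from -0.036 to 0.93 for lic and from -0.19 to 0.16 for p38a. The sign of hep also turned with the mean over its probe sets (-0.13). With 32 added to each signal, kay had 0.94 (adjusted p = 0.0776). Under the other alternatives with all 4 arrays, its adjusted p from limma ran from 0.0802 to 0.198. kay fell under the filter when its probe sets were averaged, as Mkk4 did with the filter at the 60th percentile, so these gave no value. Mkk4 and the controls of kay lie near the limit for testing.

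In the other lists, the methods' t-test at unadjusted p called 1 upstream JNK gene, 1 p38 branch gene, 1 bZIP factor, 1 haemocyte marker and 1 fat body marker higher. It called 1 JNK output gene, 1 bZIP factor, 1 stage gene and 1 haemocyte marker lower, and 3 stage genes higher. Some genes are counted in more than 1 list. Tab2 was both the upstream JNK gene and the p38 branch gene, and Fbp1 was the fat body marker and also 1 of the 3 stage genes. After adjustment the t-test called 0, Hsp68 included. Edg91 was lost without the filter and without a trend (0 stage genes rose). With single arrays left out, 1 group keeps 1 array, and the genes of these lists called in such fits were not read as results. The count of all tested probe sets that rose was 27 without control replicate 2, 34 without control replicate 1, 75 without the filter and 168 without Dop1R2 RNAi replicate 2.

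The deviations of same-numbered arrays from their group means correlated at 0.15, and nothing says that a number marks a shared batch. With replicate number as a block, kay had an adjusted p of 0.0944, puc 0.223 and Gadd45 0.200, and no call among the 9 genes changed.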
